A study of Mus musculus with 8 samples.

Results

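Neuropeptide precursor genes encode proteins that neurons cut into short signalling peptides. Described here are 10 of them, Penk, Tac1, Pdyn, Grp, Nmu, Nts, Npy, Sst, Cck and Gal, of 47643 genes counted in RNA labelled mouse spinal cord. They were chosen by symbol, as peptide precursors known from dorsal horn neurons and other interneurons, when their levels in these libraries had already been seen. Their levels, fold changes and p-values are therefore given as a description of these libraries, and no statement rests on them as a test of the choice. All 10 passed the filter on low counts and entered the fit across all genes.

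A peptide precursor enters the secretory pathway, is packed into dense core granules and is cut by convertases at basic residues. The peptides are released during strong firing and act on G protein-coupled receptors of nearby cells. In the dorsal horn of the spinal cord, where touch, itch and pain signals arrive, enkephalin and dynorphin restrain transmission, substance P carries it forward, and other peptides mark separate classes of interneurons. The same precursors are used elsewhere in the brain. Penk is a leading transcript of striatal neurons that carry the dopamine receptor gene Drd2, Tac1 and Pdyn of those that carry Drd1, and Sst, Npy and Cck of interneurons of the cortex.

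The libraries came from 4 mice labelled homozygous and 4 labelled heterozygous, each from 1 animal by its title. All were C57BL/6 mice aged 2 to 10 months, with tamoxifen given at 100 mg/kg into the peritoneum to delete Arf1, a small GTPase that recruits vesicle coats to the Golgi. The labels give this age range and dose for the libraries of both groups. They do not state the alleles, the Cre driver or the cells it acts in, or the age and sex of single animals. The series title names loss of myelin and microglial inflammation, and the design note names neurons as the subject of the Arf1 study. P-values set the difference between the groups against the spread between these animals, with the group label alone in the fit.

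Library totals were 26321522 to 37879426 expected counts in the homozygous group and 29857210 to 37803594 in the heterozygous group. Homozygous replicate 3 had 92.36% of reads mapped and 2.44% ribosomal bases, against 98.33% to 98.53% and 0.1% to 0.34% in the other 7 libraries. The RNA integrity number was 8 in homozygous replicate 4 and 9 in the others. Arf1 was at 307.0, 22.51, 22.85 and 39.86 CPM in homozygous replicates 1 to 4, and at 296.3 to 334.1 CPM in the heterozygous libraries. The library labelled homozygous replicate 1 therefore goes against its label in Arf1, so each comparison is given with all 8 libraries and with the 7 that remain without it. Here CPM is the read count relative to the TMM-scaled library total, and a call is an adjusted p under 0.05 in edgeR's quasi-likelihood test, adjusted over all genes tested by Benjamini-Hochberg.

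The tissue label was checked against marker genes, and the data go against it in part. Transcripts of the forebrain, which a spinal cord should lack, were present in all 8 libraries. The summed level of 3 forebrain genes, Emx1, Neurod6 and Tbr1, was 175.9 to 240.6 CPM in homozygous and 164.2 to 223.4 CPM in heterozygous libraries. Tbr1 and Neurod6, which mark excitatory neurons of the cortex, averaged 49.71 and 62.6 TPM over the 8 libraries, where TPM, like CPM a relative unit, also divides by transcript length. Slc17a7, the vesicular glutamate transporter of cortical neurons, was at 785.0 to 1126 CPM in homozygous and 746.7 to 1087 CPM in heterozygous libraries.

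Transcripts of the cord were present as well. Hoxc8, the gene of highest TPM among 8 Hox genes of cord segments, averaged 7.765 TPM, and the list summed to 14.14 to 37.56 CPM in homozygous and 25.38 to 47.51 CPM in heterozygous libraries. Lbx1 and Tlx3, transcription factors that define dorsal horn neurons, were at 0.4432 to 2.12 and 0.1116 to 0.5219 CPM in homozygous libraries, and at 0.5319 to 1.836 and 0.1069 to 0.3142 CPM in heterozygous libraries. A list of 11 dorsal horn genes summed to 59.43 to 68.98 CPM in homozygous and 66.32 to 74.85 CPM in heterozygous libraries. Most of that sum came from Rorb and Maf, transcription factors also used in the cortex, at 26.0 to 37.47 and 15.18 to 19.74 CPM in homozygous libraries and 28.62 to 36.76 and 18.82 to 24.77 CPM in heterozygous libraries. The 10 precursors are thus called by what they encode, and their transcripts are not assigned to the dorsal horn. In tissue RNA, fewer cells of a type and less RNA per cell cannot be told apart.

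**Figure D1:**
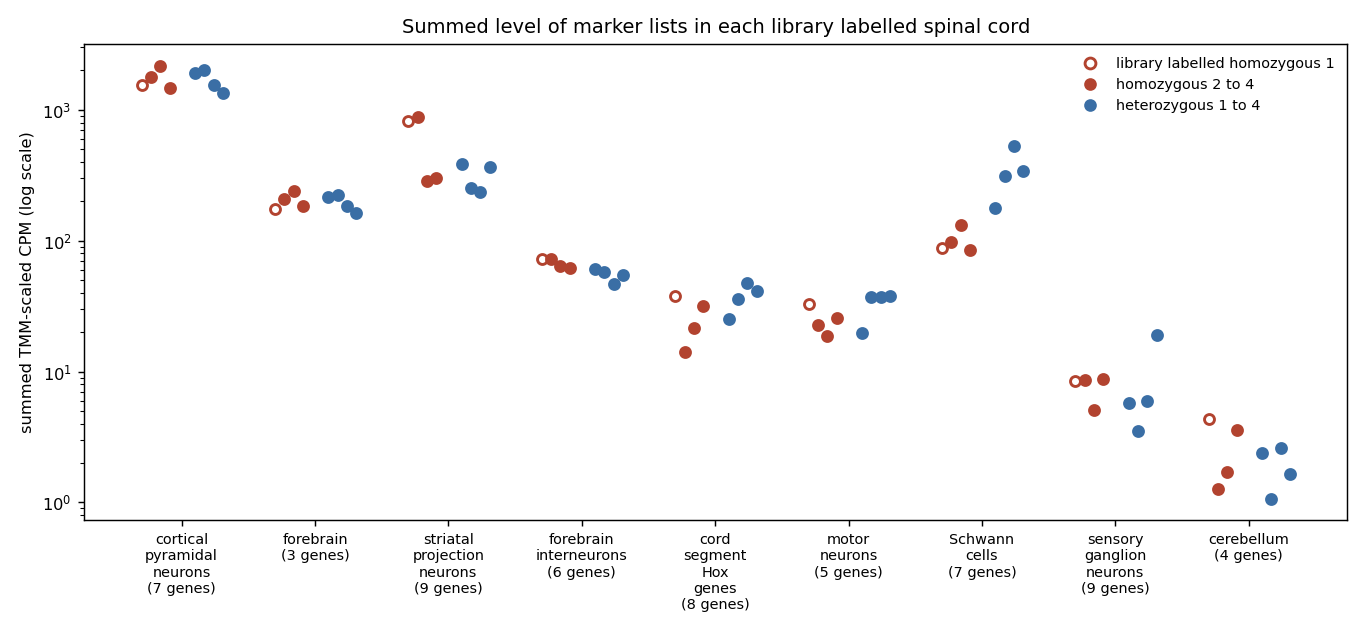
Summed TMM-scaled CPM of 9 marker lists on a log axis, with 1 point per library, homozygous left of heterozygous in each list and the library labelled homozygous replicate 1 as an open circle. The 3 forebrain genes sum to 164.2 CPM or more in every library; lists differ in gene number and length, so levels are compared within a list only.

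Per length, Cck was the most abundant of the 10 precursors and Nmu the least. Mean TPM over the 8 libraries was 372.5 ± 64.5 for Cck, 307.8 ± 30.9 for Sst, 185.9 ± 35.1 for Npy and 137.8 ± 84.5 for Penk (SD, n = 8). These are the 4 abundant members, and Penk is the one with the widest spread among them. Tac1 followed at 45.18 ± 29.7 TPM, Pdyn at 24.16 ± 6.89 TPM and Grp at 17.34 ± 2.96 TPM. The rarest were Nts at 7.79 ± 2.63 TPM, Gal at 3.799 ± 1.38 TPM and Nmu at 1.504 ± 0.634 TPM, the last with only 7 to 33 expected counts a library. Cck lay above Sst, and Sst above Npy, in 8 of 8 libraries. The order was not the same in all libraries in the middle of the range: Npy exceeded Penk in 6 of 8, Tac1 exceeded Pdyn in 7 of 8, and Pdyn exceeded Grp in 6 of 8.

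**Figure D2:**
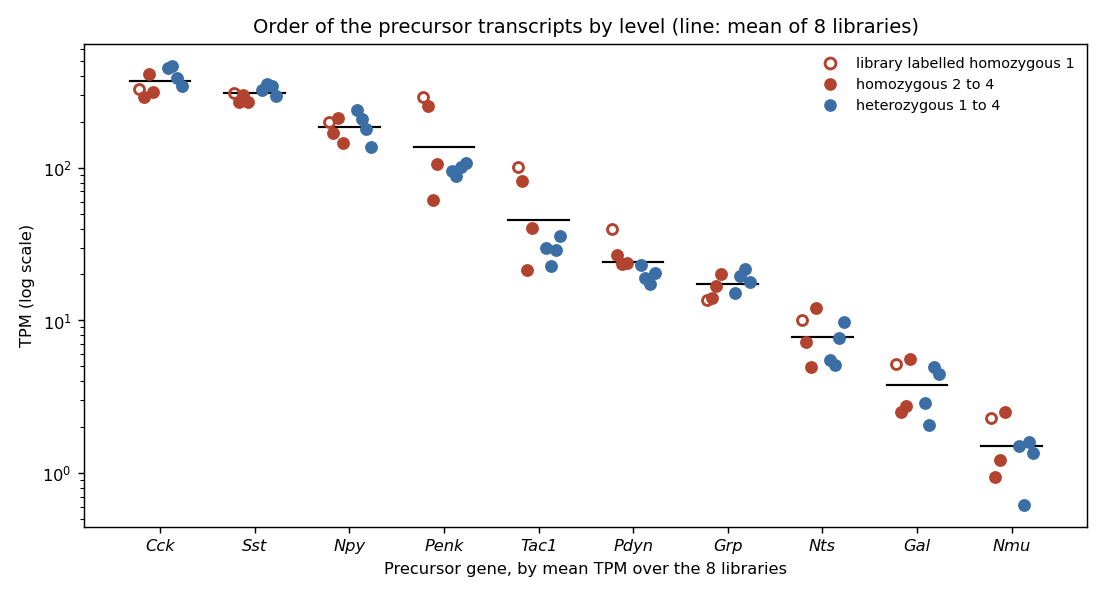
TPM of the 10 precursor genes in each library on a log axis, ordered by the mean over 8 libraries (line), with homozygous points left of heterozygous ones. Cck leads at a mean of 372.5 TPM and Nmu closes at 1.504 TPM; Penk and Tac1 spread the most, with homozygous replicates 1 and 2 at the top.

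With all 8 libraries 0 of the 10 precursors were called, and with 7 libraries 1 was, Pdyn, which was higher in the homozygous group. The background is 0.0% of 16511 genes with 8 libraries and 1.22% of 16560 genes with 7, split into 0.55% called up and 0.67% called down. Without adjustment, p was under 0.05 for 2 of the 10 with 8 libraries and for 1 with 7, beside 16.8% and 19.5% of all genes. DESeq2 called Pdyn with 8 and with 7 libraries, so 1 precursor in each, while limma-voom and limma on log2(TPM + 1) called 0 in each. Over all genes with an adjusted p DESeq2 called 4.57% with 8 libraries and 6.95% with 7, limma-voom 0.0% and 0.658%, and limma on log2(TPM + 1) 0.00606% and 13.2%. In the direction of Pdyn, higher in homozygous, these shares with 7 libraries were 2.77%, 0.332% and 0.574%, and that of DESeq2 with 8 was 1.82%. The fitted log2 fold change, homozygous over heterozygous, was positive for 7 of 10 with 8 libraries, at a median of 0.39 against 0.002 over all genes, and for 9 of 10 with 7, at a median of 0.31 against 0.003. The lowest homozygous level exceeded the highest heterozygous one for 1 of 10, Pdyn, as it did for 4.61% of all genes with 8 libraries and 9.76% with 7. The reverse held for 0 of the 10 precursors, and for 4.67% and 8.77% of all genes.

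**Figure D3:**
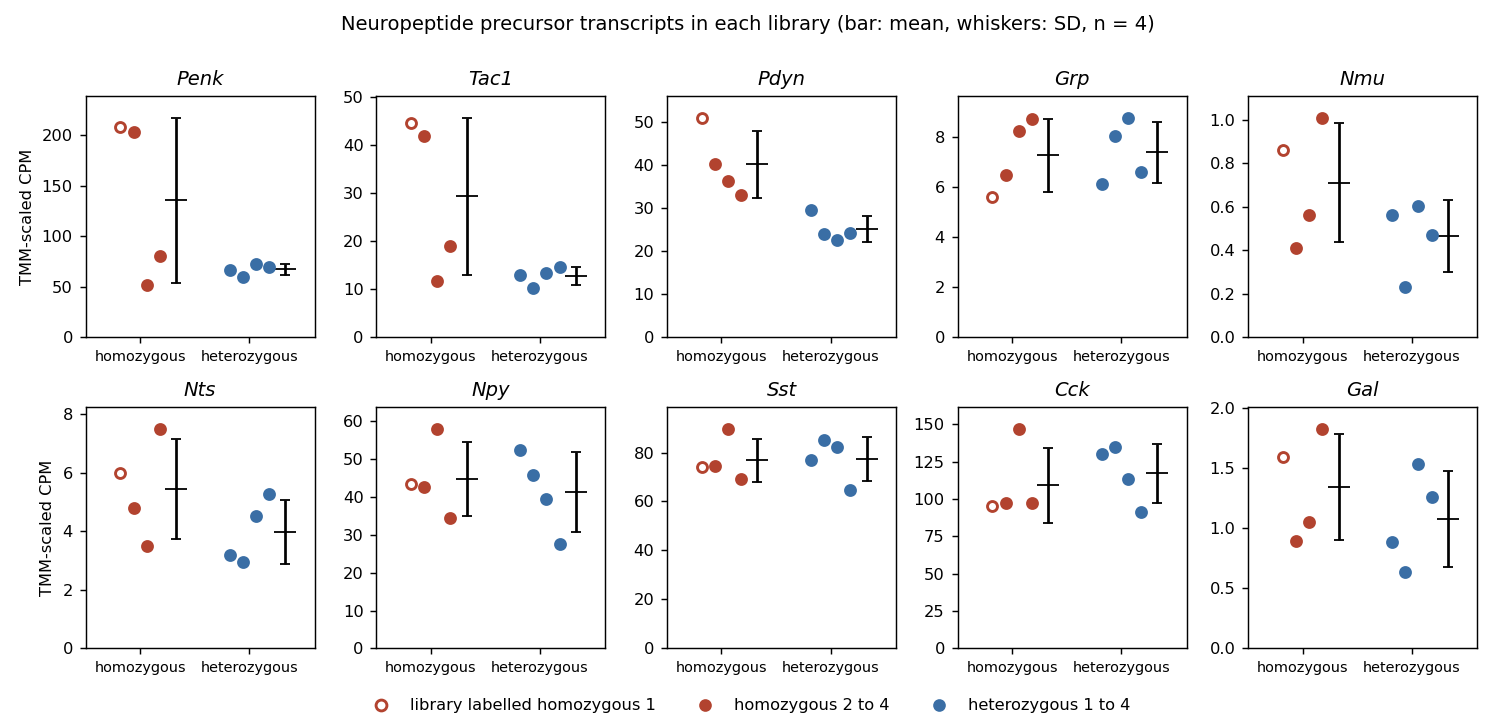
TMM-scaled CPM of each precursor gene, 1 point per library, homozygous left of heterozygous, with the mean and SD of 4 libraries beside the points. Pdyn is the gene whose groups do not overlap, and Penk and Tac1 have homozygous replicates 1 and 2 far above the rest.

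**Figure D4:**
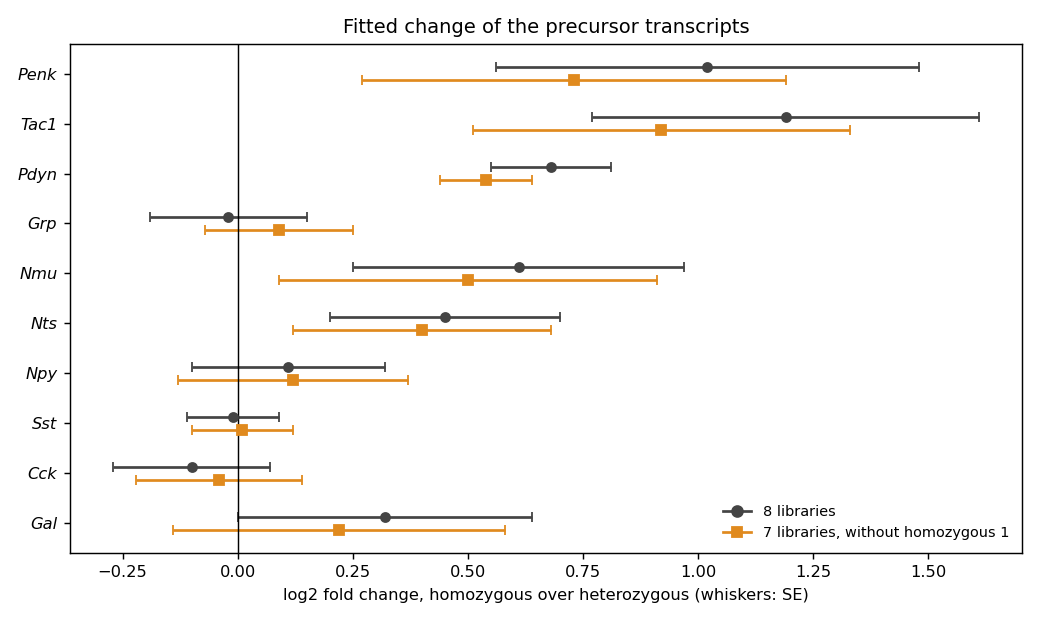
Log2 fold change of each precursor, homozygous over heterozygous, with its SE, from the fit of 8 libraries (circles) and of 7 without the library labelled homozygous replicate 1 (squares). Penk and Tac1 have the longest whiskers among the larger changes, while Pdyn has a short one at 0.68 and 0.54.

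Penk (ENSMUSG00000045573.9, chromosome 4, 4133531 to 4138819, minus strand, all gene positions here being GRCm38) encodes proenkephalin, the source of the enkephalins. Its level was 208.5, 203.2, 51.61 and 79.92 CPM in homozygous replicates 1 to 4, and 66.18, 59.8, 72.93 and 69.41 CPM in heterozygous replicates 1 to 4. Homozygous replicates 1 and 2 stood far above the other 6 libraries, homozygous replicate 3 stood below every heterozygous library, and the groups overlapped. The heterozygous libraries were close together, at 67.08 ± 5.58 CPM, against 135.8 ± 81.71 CPM in the homozygous libraries (SD, n = 4 each). The log2 fold change was 1.02 (SE 0.46, edgeR adjusted p = 0.319) with 8 libraries and 0.73 (SE 0.46, edgeR adjusted p = 0.434) with 7. It lay at -0.03 with 7 libraries when homozygous replicate 2 was also left out, so the direction in those libraries rests on that 1 library.

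Tac1 (ENSMUSG00000061762.12, chromosome 6, 7554879 to 7565834, plus strand) encodes the precursor of substance P and neurokinin A, the tachykinins, which share the end that their receptors read. That shared end is shown as it is coded in the GENCODE release M21 transcript Tac1-205, at bases 476 to 505 for substance P and 593 to 622 for neurokinin A, with the codons of the common core in capitals.
Substance P end: cagcagTTCTTTGGATTAATGggcaagcgg
Neurokinin A end: gattccTTTGTTGGACTAATGggcaaaaga
The transcript Tac1-201 holds the stretch of substance P without that of neurokinin A, and the deposited gene counts join all transcripts, so the values that follow do not separate the peptides. Tac1 was at 44.53, 41.98, 11.68 and 18.95 CPM in homozygous replicates 1 to 4, and at 13.01, 10.24, 13.4 and 14.64 CPM in heterozygous replicates 1 to 4. Homozygous replicates 1, 2 and 4 lay above every heterozygous library and homozygous replicate 3 lay within their range. Means were 29.29 ± 16.43 CPM in homozygous and 12.82 ± 1.855 CPM in heterozygous libraries (SD, n = 4 each). The log2 fold change was 1.19 (SE 0.42, edgeR adjusted p = 0.232) with 8 libraries and 0.92 (SE 0.41, edgeR adjusted p = 0.282) with 7, where it was 0.26 at its lowest, without homozygous replicate 2.

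Penk and Tac1 moved together over the libraries. In TPM, Penk was 2.88, 3.07, 2.86 and 2.63 times Tac1 in homozygous replicates 1 to 4, and 3.2, 3.93, 3.51 and 3.01 times in heterozygous replicates 1 to 4. That ratio kept between 2.63 and 3.93 while Penk itself covered a 4.039-fold range of CPM and Tac1 a 4.349-fold range. The ratio of Penk to Pdyn, by contrast, covered 2.59 to 9.41, with homozygous replicates 1 and 2 at the top and homozygous replicate 3 at the bottom. Likeness of pattern was measured as the root mean square difference of standardized log2-CPM over the 8 libraries, where a small value means a like pattern. Penk and Tac1 were each other's nearest precursor, at 0.173.

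The genes outside the set nearest to Penk, of 13261 compared, were Meis2 at 0.23, Rarb at 0.271 and Rxrg at 0.284, which encode transcription factors active in the developing and adult striatum. Those nearest to Tac1 were Meis2 at 0.225, Syndig1l at 0.229 and Tbc1d8 at 0.251. Rarb, a retinoic acid receptor gene, was at 19.38, 18.09, 6.689 and 6.785 CPM in homozygous replicates 1 to 4, and at 6.083 to 8.561 CPM in heterozygous libraries. It thus showed the same 2 high libraries as Penk and Tac1.

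A list of 9 genes of striatal projection neurons, added after these values were seen, gave the same picture. Their summed level was 822.5, 885.7, 287.8 and 303.2 CPM in homozygous replicates 1 to 4, and 388.2, 253.9, 235.6 and 363.1 CPM in heterozygous replicates 1 to 4. All 9 genes had homozygous replicates 1 and 2 as their 2 highest libraries, as had 3 of the 10 precursors, Penk, Tac1 and Pdyn, and 3.13% of all genes tested. Drd1, the dopamine receptor of neurons that use Tac1 and Pdyn, was at 33.98, 33.6, 6.648 and 7.046 CPM in homozygous replicates 1 to 4, and at 4.247 to 10.03 CPM in heterozygous libraries. Drd2, the receptor of neurons that use Penk, was at 17.32, 17.6, 2.015 and 4.208 CPM in homozygous replicates 1 to 4, and at 1.13 to 6.414 CPM in heterozygous libraries. Both receptors thus had homozygous replicates 1 and 2 on top and homozygous replicates 3 and 4 within the heterozygous range. Of the 9 striatal genes edgeR, DESeq2 and limma-voom each called 0 with 8 and 0 with 7 libraries. In edgeR 2 and 0 stood at an unadjusted p under 0.05, beside 16.8% and 19.5% of all genes. The part of the striatal transcripts in the levels of Penk and Tac1 was not tested.

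**Figure D5:**
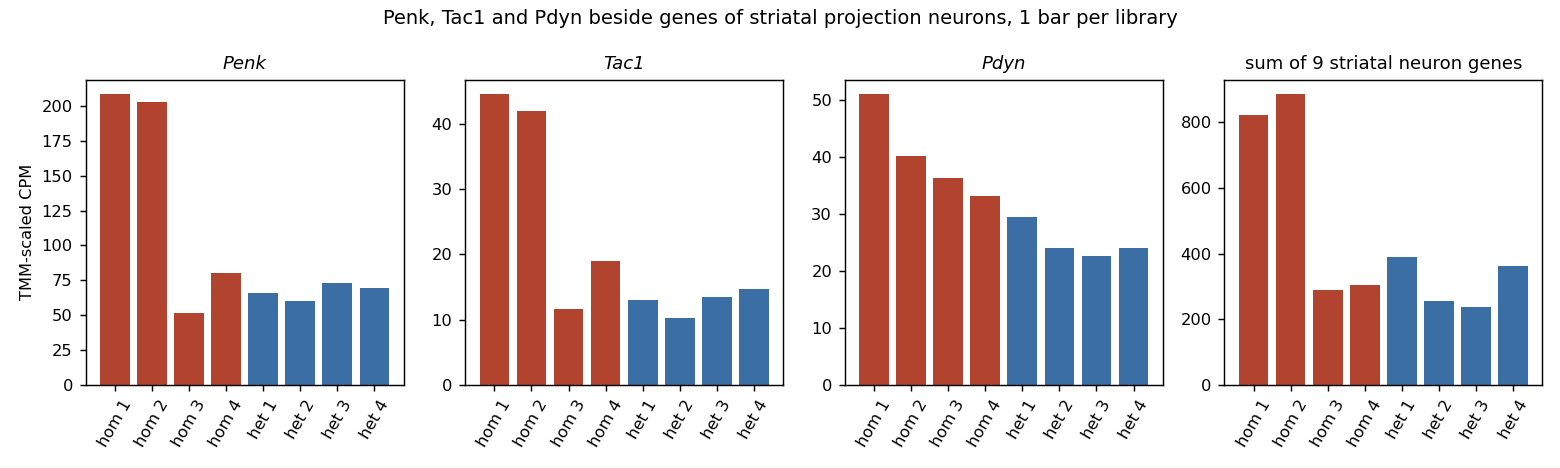
Level of Penk, Tac1 and Pdyn and the summed level of 9 genes of striatal projection neurons, in TMM-scaled CPM with 1 bar per library, homozygous (red) left of heterozygous (blue). Penk, Tac1 and the striatal sum are high in homozygous replicates 1 and 2, while Pdyn is above every heterozygous library in all 4 homozygous ones.

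Pdyn (ENSMUSG00000027400.11, chromosome 2, 129686565 to 129699844, minus strand) encodes prodynorphin, from which dynorphins and neoendorphin are cut. Each of these peptides opens with the same enkephalin core, which the coding sequence of the GENCODE M21 transcript Pdyn-201 holds 3 times, at bases 693 to 722, 801 to 830 and 858 to 887, with the codons of the core in capitals.
Pdyn core, copy 1: aaacgcTATGGCGGCTTTTTGcgcaaatac
Pdyn core, copy 2: aaacgcTATGGGGGCTTCCTGcggcgcatt
Pdyn core, copy 3: aagcgcTATGGTGGTTTCCTGcggcgtcag
Pdyn was at 51.01, 40.12, 36.34 and 33.11 CPM in homozygous replicates 1 to 4, and at 29.52, 24.07, 22.55 and 24.09 CPM in heterozygous replicates 1 to 4. Every homozygous library lay above every heterozygous one, by 1.12 times between the nearest of them. Means were 40.14 ± 7.787 CPM in homozygous and 25.06 ± 3.064 CPM in heterozygous libraries (SD, n = 4 each). In the deposited TPM the groups also stood apart, at 23.59 to 39.48 TPM in homozygous and 17.31 to 23.0 TPM in heterozygous libraries.

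The log2 fold change of Pdyn was 0.68 (SE 0.13, edgeR adjusted p = 0.101) with 8 libraries and 0.54 (SE 0.1, edgeR adjusted p = 0.0458) with 7. The call with 7 libraries stands close to the threshold and depends on single libraries. The edgeR adjusted p was 0.151 or 0.168 with homozygous replicate 2 or 3 left out, and 0.0986, 0.0803 or 0.105 with heterozygous replicate 2, 3 or 4 left out. The change was between 0.3 and 0.63 in the 13 alternatives with 7 libraries, of which 6 kept the call, at adjusted p-values of 0.000609 to 0.168; with 8 libraries 2 of 14 alternatives called it, at 0.000568 to 0.285. In homozygous replicates 3 and 4, where Pdyn exceeded every heterozygous library, the striatal sum of 287.8 and 303.2 CPM lay within the heterozygous range of 235.6 to 388.2 CPM. The sum of 6 genes of forebrain interneurons, a list also added after seeing the data, was 62.08 to 72.53 CPM in homozygous and 46.55 to 60.33 CPM in heterozygous libraries, so it stood apart between the groups as Pdyn did; the part of either list in the level of Pdyn was not tested. The genes nearest to Pdyn in pattern were Gpi1, an enzyme of glycolysis, at 0.289, Zswim7 at 0.349 and Nsg1, a neuronal endosome protein, at 0.357. Its nearest precursor was Tac1, at 0.599.

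Sst encodes somatostatin, Npy neuropeptide Y and Cck cholecystokinin, peptides of inhibitory neurons of the cortex and, for Cck, also of excitatory neurons there. Sst (chromosome 16, 23889573 to 23890958, minus strand) was at 73.91, 74.35, 89.69 and 69.35 CPM in homozygous replicates 1 to 4, and at 76.87, 85.1, 82.17 and 64.82 CPM in heterozygous replicates 1 to 4. Npy (chromosome 6, 49822710 to 49829507, plus strand) was at 43.51, 42.69, 58.02 and 34.42 CPM in homozygous replicates 1 to 4, and at 52.5, 45.71, 39.54 and 27.59 CPM in heterozygous replicates 1 to 4. Cck (chromosome 9, 121489824 to 121495694, minus strand) was at 95.33, 97.2, 146.9 and 97.47 CPM in homozygous replicates 1 to 4, and at 129.7, 134.9, 113.5 and 91.01 CPM in heterozygous replicates 1 to 4. All 3 had their highest level in homozygous replicate 3 and their groups overlapped, with heterozygous replicate 4 the lowest of the 8 libraries for each.

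The log2 fold change with 8 libraries was -0.01 for Sst (SE 0.1), 0.11 for Npy (SE 0.21) and -0.1 for Cck (SE 0.17), with edgeR adjusted p = 0.976, 0.822 and 0.781. With 7 libraries it was 0.01, 0.12 and -0.04, at edgeR adjusted p = 0.971, 0.816 and 0.917, so none stood beyond its SE. The genes of cortical pyramidal neurons, 7 in a list added after seeing the data, also summed highest in homozygous replicate 3 and lowest in heterozygous replicate 4, at 1544, 1788, 2177 and 1465 CPM in homozygous replicates 1 to 4 and 1929, 2028, 1546 and 1347 CPM in heterozygous replicates 1 to 4. Homozygous replicate 3 is also the library with 92.36% of reads mapped. The part of either in the spread of Sst, Npy and Cck was not tested. Sst and Cck were nearest to each other among the precursors, at 0.456, and Npy was nearest to Sst, at 0.558. Outside the set, Npy was closest to Nt5m at 0.184, to Crhbp, which encodes a corticotropin-releasing hormone binding protein, at 0.233, and to Ephx4 at 0.247. Sst was closest to Cfl1, Coq10b and Pkig, at 0.235 to 0.248, and Cck to Lpcat4, to the Nogo receptor gene Rtn4r and to Mien1, at 0.248 to 0.272.

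Grp, Nts, Gal and Nmu, of which Grp is best known for itch, were the 4 rarest precursors, and their groups overlapped. Grp, gastrin-releasing peptide, was at 5.615, 6.513, 8.26 and 8.742 CPM in homozygous replicates 1 to 4, and at 6.119, 8.045, 8.795 and 6.624 CPM in heterozygous replicates 1 to 4. Nts, neurotensin (chromosome 10, 102481756 to 102490486, minus strand), was at 5.981, 4.801, 3.505 and 7.503 CPM in homozygous replicates 1 to 4, and at 3.206, 2.959, 4.521 and 5.262 CPM in heterozygous replicates 1 to 4. Grp had nearly the same range in both groups, while Nts reached higher in the homozygous libraries. Gal, galanin (chromosome 19, 3409915 to 3414544, minus strand), was at 1.593, 0.8932, 1.048 and 1.827 CPM in homozygous replicates 1 to 4, and at 0.8817, 0.6316, 1.534 and 1.257 CPM in heterozygous replicates 1 to 4. Nmu, neuromedin U (chromosome 5, 76333495 to 76363788, minus strand), was at 0.8619, 0.4094, 0.5641 and 1.011 CPM in homozygous replicates 1 to 4, and at 0.5611, 0.2327, 0.6028 and 0.4713 CPM in heterozygous replicates 1 to 4. Homozygous replicates 1 and 4 were the highest of the 8 libraries for Nts, Gal and Nmu, and heterozygous replicate 2 the lowest.

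The log2 fold change with 8 libraries was -0.02 for Grp (SE 0.17), 0.45 for Nts (SE 0.25), 0.32 for Gal (SE 0.32) and 0.61 for Nmu (SE 0.36), with edgeR adjusted p = 0.959, 0.384, 0.63 and 0.411. With 7 libraries it was 0.09, 0.4, 0.22 and 0.5, at edgeR adjusted p = 0.798, 0.462, 0.756 and 0.522. Gal had 19 to 61 expected counts a library and Nmu 7 to 33. Gal and Nmu were each other's nearest precursor, at 0.43, and Nts was nearest to Gal, at 0.508. The genes closest to Gal were Serpinb1b at 0.123, Hoxb9, a segment gene of the trunk, at 0.167 and Ebf3, a neuronal transcription factor, at 0.169. Hoxb9 was at 15.51, 7.778, 10.27 and 19.02 CPM in homozygous replicates 1 to 4, and at 8.256, 6.349, 13.26 and 11.39 CPM in heterozygous replicates 1 to 4. The libraries thus follow the order of Gal, except that homozygous replicate 2 and heterozygous replicate 1 change places. Nts was closest to Khdrbs2 at 0.273, to Ecel1, a neuronal protease gene, at 0.293 and to Greb1 at 0.294, Grp to Hpgd, Rimklb and Mpc1-ps, at 0.28 to 0.307, and Nmu to Tex261, Pdlim4 and Lmf1, at 0.229 to 0.322.

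Several precursor genes are known targets of cAMP signalling, which acts through the element TGACGTCA or its core CGTCA. RefSeq promoters on GRCm38.p6 were at hand for 8 of the 10 precursors, and the 250 bases before each RefSeq start were searched on both strands. These starts can lie downstream of the GENCODE ones behind the gene positions given here, so 182 of the 250 bases lie inside the GENCODE gene for Tac1, 114 for Sst, 68 for Nts, 11 for Nmu and all 250 for the second start of Pdyn. The full element was present in 1 of the 8, Sst, and the core in 5 of the 8, Tac1, Nmu, Nts, Sst and Cck, where each full element holds the core on both strands. Of 32851 promoters of the same length, 1.55% held the full element and 17.8% the core. The windows that follow are 30 bases around each match, read toward the gene, with the matched letters in capitals, to show where these letters lie.
Tac1, chr6:7554852-7554881, plus strand: tccctaaaattgCGTCAtttcgaacacaat
Tac1, chr6:7555006-7555035, plus strand: gctctacaggctCGTCAcgcctgagataaa
Sst, chr16:23890874-23890903, minus strand: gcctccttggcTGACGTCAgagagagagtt
Cck, chr9:121495724-121495753, minus strand: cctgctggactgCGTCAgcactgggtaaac
Nts, chr10:102490567-102490596, minus strand: attagggaagatCGTCActttccatcaagg
Nmu, chr5:76363874-76363903, minus strand: agcaggtccgggTGACGccagggagccagg
The match began 48 bases before the RefSeq start in Sst, 47 in Cck and 43 for the nearer of those in Tac1, which places that of Sst and the nearer one of Tac1 inside the GENCODE gene. Pdyn, the precursor whose groups did not overlap, held neither set of letters before either of its 2 RefSeq starts, so its first window is shown whole and in lower case.
Pdyn, chr2:129699939-129700188, minus strand: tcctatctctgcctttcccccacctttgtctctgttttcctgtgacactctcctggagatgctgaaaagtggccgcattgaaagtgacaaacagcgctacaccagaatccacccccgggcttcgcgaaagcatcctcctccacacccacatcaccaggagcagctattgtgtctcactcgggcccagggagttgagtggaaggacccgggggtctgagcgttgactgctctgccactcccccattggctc
The matches describe letters only, and binding was not measured.

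Receptors of these peptides stayed without a call by edgeR. Of 24 listed receptor genes 23 were in the table and 20 were tested, and edgeR called 0 with 8 and 0 with 7 libraries. In these fits 5 and 5 stood at an unadjusted p under 0.05, beside 16.8% and 19.5% of all genes. With 7 libraries DESeq2 called 2 lower, limma-voom 0, and limma on log2(TPM + 1) 3 lower. The shares of all genes called in that direction were 4.18%, 0.326% and 12.7%. Sstr2, a somatostatin receptor, was at 15.52 to 21.02 CPM in homozygous and 20.25 to 24.74 CPM in heterozygous libraries (log2 fold change with 7 libraries -0.44, SE 0.1, edgeR adjusted p = 0.059). Oprd1, the delta opioid receptor that enkephalins act on, was at 7.857 to 11.75 CPM in homozygous and 8.959 to 16.94 CPM in heterozygous libraries (-0.65, SE 0.19, edgeR adjusted p = 0.116). The receptor genes of highest TPM, Ntsr2 for neurotensin and Cckbr for cholecystokinin, had log2 fold changes of 0.01 and -0.46 with 7 libraries, at edgeR adjusted p = 0.946 and 0.231. The median over the 20 genes was 0.02 with 8 and -0.12 with 7 libraries.

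Among 10 genes of precursor processing, edgeR made 0 calls with 8 libraries and 1 with 7. With 8 libraries 4 stood at an unadjusted p under 0.05, beside 16.8% of all genes. DESeq2 called 1 up and 2 down there, beside 1.82% and 2.75% of all genes. With 7 libraries 6 stood at an unadjusted p under 0.05, beside 19.5% of all genes. DESeq2 called 2 lower there, limma-voom 0 and limma on log2(TPM + 1) 3 lower, beside 4.18%, 0.326% and 12.7% of all genes in that direction. The gene called with 7 was Pcsk1, the convertase that makes the first cuts in many precursors, at 41.06, 23.37, 20.91 and 29.39 CPM in homozygous replicates 1 to 4, and 55.55, 40.16, 38.74 and 40.55 CPM in heterozygous replicates 1 to 4. It fell with 7 libraries (log2 fold change -0.83, SE 0.16, edgeR adjusted p = 0.0484), while the library labelled homozygous replicate 1 lay within the heterozygous range. Single libraries decide this call too, as the edgeR adjusted p became 0.161 or 0.18 with homozygous replicate 2 or 3 left out, and 0.0873, 0.0703 or 0.0936 with heterozygous replicate 2, 3 or 4 left out, in a range of 2.71e-05 to 0.18 over its 13 alternatives. Cpd, a carboxypeptidase, had -0.29 (SE 0.06, edgeR adjusted p = 0.0576), and Cpe and Scg5, the carboxypeptidase and the chaperone of highest TPM in the list, had 0.24 and 0.28 (edgeR adjusted p = 0.194 and 0.139).

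Of 9 genes of peptide breakdown edgeR called 0 with 8 libraries, where 2 stood at an unadjusted p under 0.05, beside 16.8% of all genes. DESeq2 called 1 lower there, beside 2.75% of all genes. With 7 libraries 2 stood at an unadjusted p under 0.05, beside 19.5% of all genes. DESeq2 called 2 lower, limma-voom 1 and limma on log2(TPM + 1) 2, beside 4.18%, 0.326% and 12.7% of all genes in that direction. The 1 gene that edgeR called with 7 was Ece1, an endopeptidase that cuts peptides inside endosomes. It was at 44.58, 38.44, 41.26 and 42.44 CPM in homozygous replicates 1 to 4, and 54.77, 57.58, 54.03 and 51.05 CPM in heterozygous replicates 1 to 4, and the groups did not overlap, as for 4.67% of all genes in the lower direction. Ece1 fell with 7 libraries (log2 fold change -0.42, SE 0.07, edgeR adjusted p = 0.0298). With homozygous replicate 2 or 3 left out the edgeR adjusted p was 0.104 or 0.11, and with heterozygous replicate 2, 3 or 4 left out it was 0.07, 0.0667 or 0.0568, in a range of 2.15e-05 to 0.11 over its 13 alternatives. Of these 13 alternatives 7 kept the call of Ece1. Npepps, an aminopeptidase, had -0.22 with 7 libraries (SE 0.07, edgeR adjusted p = 0.131).

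Of 9 dense core granule genes edgeR called 0 with 8 and 0 with 7 libraries. In these fits 2 and 2 stood at an unadjusted p under 0.05, beside 16.8% and 19.5% of all genes. DESeq2 called 0 and 2, the latter lower in homozygous, beside 4.18% of all genes in that direction. The granin gene Chga had -0.27 (SE 0.08, edgeR adjusted p = 0.124) and Cadps, a priming factor for granule release, -0.25 (SE 0.07, edgeR adjusted p = 0.116) with 7 libraries. Of 26 other neuropeptide precursors 16 were tested, and edgeR called 0 with 8 and 0 with 7 libraries. DESeq2 called 0 and 1, the latter higher in homozygous, beside 2.77% of all genes in that direction. At an unadjusted p under 0.05 stood 0 and 1. The gene at that p was Vip, vasoactive intestinal peptide of cortical interneurons, at 26.38, 45.85, 57.74 and 42.18 CPM in homozygous replicates 1 to 4, and 31.74, 34.64, 32.11 and 21.13 CPM in heterozygous replicates 1 to 4 (log2 fold change with 7 libraries 0.7, SE 0.17, edgeR adjusted p = 0.0879). It was lower in the library labelled homozygous replicate 1 than in 3 heterozygous libraries, in contrast to Pdyn, which was highest there.

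The gene lists of neuron classes that carry these peptides gave no call by edgeR. Of 10 dorsal horn genes tested edgeR and DESeq2 each called 0 with 8 and 0 with 7 libraries. In edgeR 2 and 3 stood at an unadjusted p under 0.05, beside 16.8% and 19.5% of all genes. The dorsal horn factors Tfap2b and Pax2 had log2 fold changes of -1.04 and -1.02 with 7 libraries (SE 0.34 and 0.36, edgeR adjusted p = 0.143 and 0.167), at levels under 3 CPM. The genes of inhibitory and excitatory transmission, 5 in all, had 0 calls by edgeR and DESeq2 with 8 and with 7 libraries, and 0 and 1 at an unadjusted p under 0.05. Gad1, which makes GABA, was at 345.0 to 405.8 CPM in homozygous and 302.3 to 417.1 CPM in heterozygous libraries, and the glycine transporter gene Slc6a5, of cord and brainstem, was at 24.08 to 57.85 CPM in homozygous and 42.88 to 91.35 CPM in heterozygous libraries. Genes of sensory ganglion neurons, which also make Tac1 and Gal, were detected for all 9 in at least some libraries and summed to 5.077 to 8.84 CPM in homozygous and 3.524 to 18.93 CPM in heterozygous libraries. Genes of Schwann cells of nerve roots summed to 85.08 to 132.2 CPM in homozygous and 176.2 to 532.8 CPM in heterozygous libraries, and Dhh, a hedgehog ligand of these cells, fell with 7 libraries (log2 fold change -3.51, SE 0.55, edgeR adjusted p = 0.0256). Its edgeR adjusted p was 0.106 or 0.0783 with homozygous replicate 2 or 3 left out, and 0.0576, 0.0594 or 0.0645 with heterozygous replicate 2, 3 or 4 left out, in a range of 8.51e-06 to 0.106 over its 13 alternatives. Motor neuron genes summed to 18.53 to 32.99 CPM in homozygous and 19.66 to 37.62 CPM in heterozygous libraries. The part of these cell types in the levels of the precursors was not tested.

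The authors' deposited table of their own comparison lists 185 genes, where 47643 were counted, among them 0 of the 10 precursors. With so few genes listed, that 0 is no result about the precursors. Arf1 stands at a log2 fold change of -3.5 in the authors' deposited table, so that negative values there mean lower in homozygous. In the fits given here Arf1 was at -1.67 with 8 libraries and -3.46 with 7, so the authors' value is near the latter. The striatal gene Ppp1r1b stands at a log2 fold change of 1.1 (false discovery rate 0.0936) in the authors' deposited table. In that same authors' deposited table Calca, another neuropeptide precursor, stands at -1.1 (0.00913), Pax2 at -1.31 (0.00499) and Slc6a5 at -1.25 (0.00972).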

How the data were processed

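The submitters' processing notes name cutadapt, STAR, Picard and RSEM and the build mm10, with no versions or annotation. The authors deposited expected counts and TPM per gene and library, per the file headers, and a table of their comparison with log2 fold changes and p-values (false discovery rates). Other values per library (percent mapped, RNA integrity number) come from the deposited sequencing report.

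The 10 genes, the 15 gene lists, the tests and the rule for named genes were chosen with earlier results of these data known, and 6 further lists were added after seeing the data. Expected counts were rounded and fitted with edgeR 4.0.16 in R 4.3.3 (TMM, filterByExpr by group, robust quasi-likelihood fit), with Benjamini-Hochberg adjustment over all genes tested. SE refers to the log2 fold change. The procedure was tested on simulated counts, drawn independently for each gene and with no library that goes against its label. That test therefore cannot vouch for the calls given here. Named list genes are those called in either fit, otherwise the 2 of smallest p with 7 libraries and the 2 of highest mean TPM; other genes named were chosen after their values were seen. Some genes of the lists are not reported here, and list sums and counts are over the others. Likeness used genes with a mean of at least 1 CPM, without predicted, Xist and Y-linked genes. RSEM joins transcripts of a gene; totals over 26321522 expected counts leave genes near 1 CPM with few counts. Tables and figures were made in Python 3.11.15 (pandas 2.3.3, matplotlib 3.10.9). The alternatives tried were size factors by median of ratios, a fit of unfiltered genes, a minimum of 1 CPM in 4 libraries (3 of 7), DESeq2 1.42.0, limma-voom 3.58.1, limma on log2(TPM + 1) and each library left out. Positions and coding stretches are from GENCODE M21 (GRCm38, also called mm10), promoters from RefSeq (GRCm38.p6).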

Additional observations from a re-analysis of the deposited data

Results flagged for a closer look

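Dixon's gap test at the 95% level was run on 60 groups of 4 libraries, at both ends of each. It marked 8 values, where chance marks about 1 in 20 groups. Among the precursors, Cck was marked in homozygous replicate 3, at 146.9 CPM against 95.33 to 97.47 CPM in the other 3 homozygous libraries. Arf1 was marked in the library labelled homozygous replicate 1, at 307.0 CPM. Among list sums, the dense core granule genes were highest at 2649 CPM in heterozygous replicate 1, and the peptide degrading enzymes were highest at 373.2 CPM in heterozygous replicate 4. Other neuropeptide precursors were lowest at 86.27 CPM in heterozygous replicate 4, and motor neuron genes were lowest at 19.66 CPM in heterozygous replicate 1. Sensory ganglion genes were lowest at 5.077 CPM among homozygous libraries, in replicate 3, and highest at 18.93 CPM among heterozygous libraries, in replicate 4.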

How the results depend on the processing

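With 8 libraries the number of precursors called was 0, against 1 with DESeq2 (Pdyn) and 0 to 1 with a library left out, 1 without homozygous replicate 1. With 7 libraries it was 1, against 0 with limma-voom, 0 with limma on log2(TPM + 1) and 0 to 1 with a library left out. Over all genes the count with 8 libraries was 0, against 63 without a filter (19 higher, 44 lower), 679 with DESeq2 (270 higher, 409 lower), 1 with limma on log2(TPM + 1) and 0 to 202 with a library left out. With 7 libraries it was 202 (91 higher, 111 lower), against 444 without a filter (157 higher, 287 lower), 1081 with DESeq2 (431 higher, 650 lower), 109 with limma-voom (55 higher, 54 lower), 2190 with limma on log2(TPM + 1) (95 higher, 2095 lower) and 6 to 402 with a library left out, so the background of 1.22% rests on single libraries too. On log2(TPM + 1) the median of all genes was -0.144 with 8 and -0.175 with 7 libraries. With 7 libraries the sign of the change turned in 1 of 13 alternatives for Penk (range -0.03 to 1.07), 2 for Gal, 3 for Grp, 3 for Npy, 4 for Sst and 4 for Cck; Tac1 covered 0.26 to 1.24, Pdyn 0.3 to 0.63, Nts 0.05 to 0.62 and Nmu 0.04 to 0.75 in its 12 alternatives. No paired analysis was possible because the labels number the animals individually and give no shared replicate numbers. Depth was lowest for Nmu and Gal, with 7 to 61 expected counts a library.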
